A study of Mus musculus with 9 samples.

Results

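PPARγ binding at the genes of 3 fatty acid binding proteins, Fabp3, Fabp4 and Fabp5, was examined in mouse interscapular brown adipose tissue (iBAT) across the day. Peaks were taken from the table of all 66066 PPARγ peaks by position alone. A peak was a member if its midpoint lay in a window of 280 kb on chromosome 3 that holds Fabp5 and Fabp4, or in a window of 50 kb on chromosome 4 that holds Fabp3. Members numbered 29, of which 23 lay in the Fabp4 and Fabp5 cluster and 6 at Fabp3. iBAT of male C57BL/6J mice of 10 weeks was pooled from 8 mice at each of 8 time points, every 3 h from ZT0 to ZT21, under 12 h of light and 12 h of dark, with ZT0 as the start of the light phase. The mice were fed chow and no treatment was given, so the groups differ in Zeitgeber time, and with it in pool and library. Each pool gave 1 library of chromatin precipitated with a PPARγ antibody. With 1 library per time point, differences between mice or between preparations have no estimate, and each test rests on the order of the libraries in time.

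Fatty acid binding proteins are small soluble proteins that hold a long-chain fatty acid in a barrel-shaped pocket and carry it through the cytosol. FABP4, also called aP2 or A-FABP, is the form of fat cells and is used as a marker of them. FABP5 is the epidermal form, which macrophages and fat cells also make, and FABP3 is the form of heart and muscle, which brown fat makes as well. PPARγ is a nuclear receptor of fat cells that pairs with the retinoid X receptor on DR1 elements, direct repeats of AGGTCA spaced by 1 base, and Fabp4 is among its best known targets. Fatty acids are also ligands of this receptor.

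The sequences that look most like a DR1 within these peaks are shown first, because this is the motif the receptor is known to bind. Element bases are in capitals between 8 flanking bases on each side, read 5′ to 3′ from the GRCm38 (mm10) genome on the strand given. Substitutions name the base of the DR1 consensus, its position counted from 1 at the 5′ end of the element, and the base of the genome. The closest matches, with 1 mismatch among the 12 fixed bases, were found in 3 member peaks. These carry G3C upstream of the Fabp3 start site, T11A farther upstream of Fabp3, and G9T between Gm9833 and Pmp2:
Fabp3 chr4:130307880-130307892, plus strand: ctggcacaAGCTCAGAGGTCAgtaaataa
Fabp3 chr4:130298011-130298023, plus strand: acatatacAGGTCAGAGGACAaattccaa
Pmp2 chr3:10156885-10156897, minus strand: gaaccagcAGGTCAGATGTCAcctacaag
The first of these lies 852 bases upstream of the Fabp3 start site, inside the strongest Fabp3 peak. Peaks at Fabp4 held 5 elements with 2 mismatches each, 3 of them in the upstream peak (G9T and G10C, then G10T and C12T, then G2T and T11A) and the last 2 in the peak over the gene (T4C and A6T, then G2A and T11C):
Fabp4 chr3:10211520-10211532, plus strand: tggggctgAGGTCACATCTCAgaatctca
Fabp4 chr3:10212234-10212246, minus strand: gacaaagtAGGTCACAGTTTAtctgcaga
Fabp4 chr3:10216727-10216739, minus strand: tcagaagtATGTCAAAGGACAcaggaaga
Fabp4 chr3:10203185-10203197, plus strand: gcaggcccAGGCCTGAGGTCActttcagt
Fabp4 chr3:10206481-10206493, plus strand: taaaatctAAGTCAAAGGCCAggcctcac
The peak with the lowest P by both tests of oscillation, upstream of Fabp3, held 1 element with 2 mismatches (T4C and A6C):
Fabp3 chr4:130299695-130299707, plus strand: gaagagacAGGCCCAAGGTCAcagcgcga
No peak nearest to Fabp5 held an element with 2 mismatches or fewer.

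Such elements were counted on both strands of every peak. At least 1 element with 2 mismatches or fewer occurred in 12 of the 29 members (41.4%) and in 23.6% of the 66059 peaks searched. Long peaks hold more letters, and of peaks within 10% of the same length 82.8%, 80.7% and 81.0% held one for the Fabp4 gene peak, the Fabp4 upstream peak and the main Fabp3 peak. At most 1 mismatch was met in 3 members (10.3%) and in 4.99% of all peaks, and 0 mismatches in 0 members and in 0.606% of all peaks. Of peaks of like length to these 3 members, 25.4% met it for the main Fabp3 peak. The share was 5.91% for the peak with T11A and 3.82% for that with G9T. The core of C/EBP proteins, partners of PPARγ in fat cells (TTGCNNAA, both strands), was present in 14 members (48.3%) against 44.1% of all peaks. It occurred 6 times in the Fabp4 gene peak and 3 times in the upstream peak. Of peaks of like length to these, 100% and 97.2% held it at least once. The E-box bound by CLOCK and BMAL1 (CACGTG, which reads the same on both strands) was present in 4 members (13.8%) against 16.9% of all peaks, and 2 of these were the main Fabp3 peak, 751 bases before the start site, and the peak about 9 kb upstream of it. Of peaks of like length to these 2 Fabp3 peaks, 64.3% and 33.6% held an E-box. The palindrome of nuclear factor I (TGGC and GCCA spaced by 5 bases) was present in 2 members (6.90%) against 5.10% of all peaks. Among these members was the Fabp4 upstream peak, and 20.7% of peaks of like length to it held the palindrome. In the 300 bases around the Fabp3 start site in RefSeq's GRCm38 promoter table, no element with 2 mismatches or fewer was found, and 3.86% of the 32851 promoters in that table held one. These are matches of letters and not measured sites.

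The deposited counts of reads per peak summed to between 29572225 and 34264812 per library. Counts were scaled to a common depth with TMM factors between 0.959 and 1.04, and these scaled values are called normalized counts below. The factor was lowest at ZT6 (0.959) and highest at ZT15 (1.03) and ZT18 (1.04). Counts are divided by it, so TMM raises values at ZT6 relative to those at ZT15 and ZT18, compared with library totals alone. The share of reads in the strongest 10% of peaks was lowest at ZT15 (44.2%) and highest at ZT6 (48.1%). All 29 members were measured in all libraries, the smallest raw count being 37. Intervals given as 95% are Wilson intervals of a count and cover counting error only. The tissue can be judged from this table only by its PPARγ peaks, which include a peak nearest to Ucp1, the uncoupling protein gene of brown fat, with a mean normalized count of 10544.

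Along the 2 loci the peaks were very uneven in strength. The mean normalized count of a member ranged from 56.9 to 7335 with a median of 318, while the median over all peaks was 224. By this count both peaks at Fabp4 were among the strongest of the table, ranking 77 and 155 of 66066. Wide peaks collect more reads, and these 2 spanned 7.32 and 9.36 kb. Of the other members, the main Fabp3 peak ranked 347 and the next Fabp3 peak 1168, and the best ranked peak nearest to Fabp5 came at 7192. Per kb of peak, the summed normalized count averaged 791 at Fabp4 (2 peaks), 571 at Fabp3 (6 peaks) and 423 at Fabp5 (5 peaks), against a median of 270 per kb over all peaks. By the centre of the peak, 24 members were intergenic, 4 lay in an intron and 1 in an exon. Assignment to the nearest start site of a curated RefSeq transcript gave 2 peaks to Fabp4, 5 to Fabp5, 6 to Fabp3, 7 to Pmp2 (a fatty acid binding protein of myelin), 6 to the transcribed pseudogene Gm9833 and 3 to Fabp12, a further member of the family.

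Oscillation was assessed by JTK-cycle, a rank test against cosine curves with an exact null distribution, at periods of 21 and 24 h. The adjusted P is corrected for the 15 combinations of period and phase tried on a peak, and it is not corrected over peaks. Of the 29 members, 3 were oscillating at an adjusted JTK P under 0.05 (10.3%), against 11.6% of all peaks, so the members were called about as often as any peak. As a second view, a cosine of 24 h was fitted to the counts with edgeR's quasi-likelihood test, with Benjamini-Hochberg adjustment over all peaks. By that test 5 members had a 24-h cosine (17.2%), against 13.4% of all peaks. All members called by either test had mean normalized counts of at least 1000. Of the 8 members at that strength, 3 passed JTK and 5 the cosine, against 20.8% and 27.4% of the 7714 peaks of that strength. After Benjamini-Hochberg adjustment over all peaks no JTK call was left in the whole table, where the smallest adjusted value was 0.0968, and the smallest among the members was 0.128. Single libraries moved these counts. In the cluster, 2 peaks passed JTK with all libraries, 5 without ZT0, 1 without ZT3, 0 without ZT6 and 4 without ZT9. For the cosine in the cluster the count was 3, and it became 5 without ZT3 and 1 each without ZT6, ZT15 or ZT18. At Fabp3 the JTK count of 1 became 2 without ZT9, 3 without ZT15 and 2 without ZT21, and the cosine count of 2 became 1 without ZT6, ZT9 or ZT18.

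**Figure D1:**
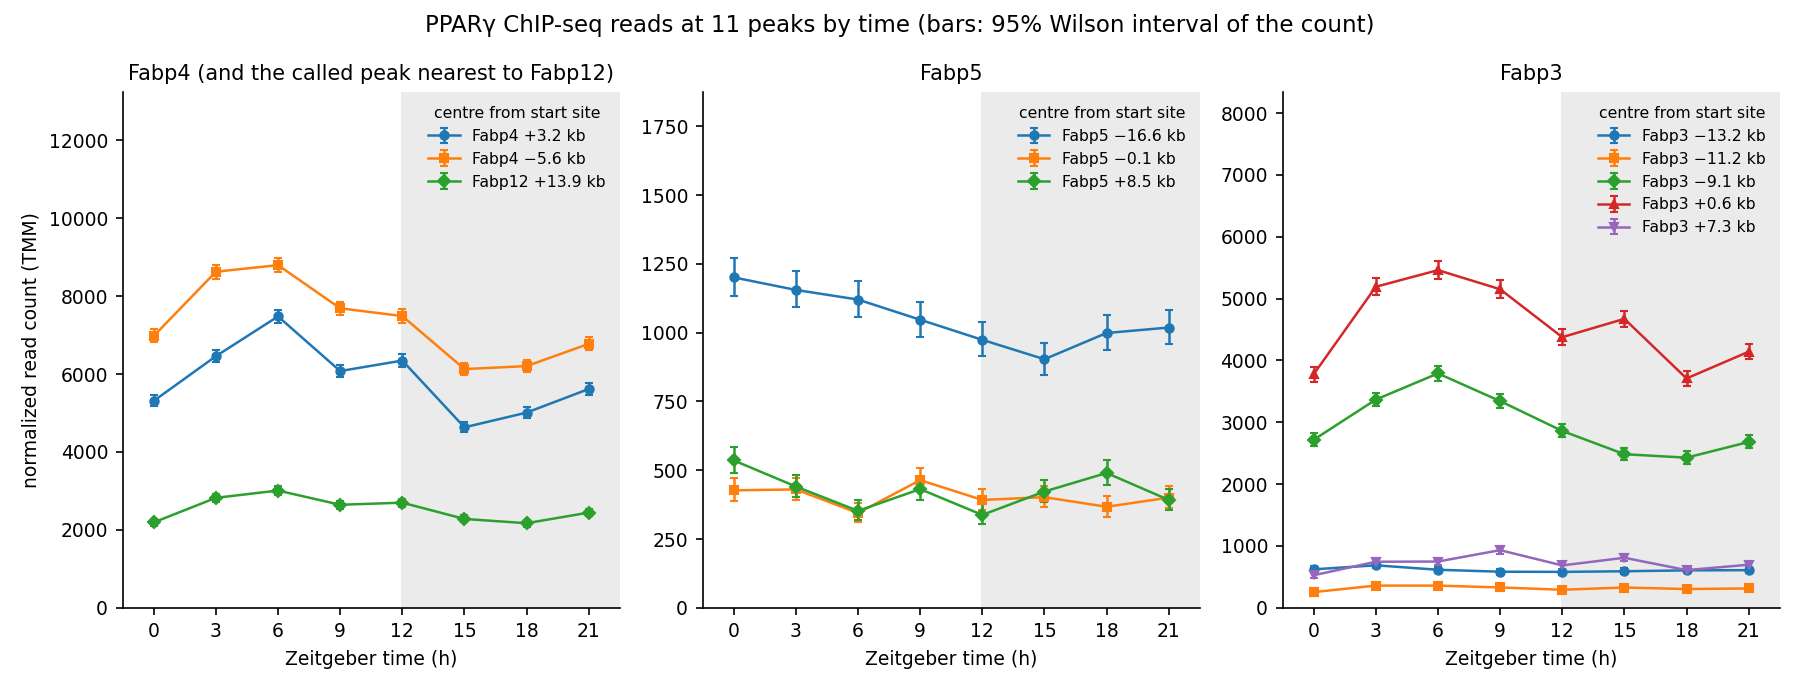
Normalized read counts (TMM) of PPARγ ChIP-sequencing against Zeitgeber time in h at 11 peaks, in panels for Fabp4 with the called peak nearest to Fabp12, for Fabp5 and for Fabp3. Points are single libraries, bars are 95% Wilson intervals of the count and the dark phase is shaded. Both Fabp4 peaks and the 2 strong Fabp3 peaks stand highest at ZT6, and the peak over the Fabp5 start site keeps between 345 and 464.

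Fabp4 carried most of the PPARγ reads of the cluster, in 2 peaks that were both highest in the middle of the light phase. Fabp4 lies on the minus strand at chr3:10204342-10208616 and has 4 exons. The first peak, chr3:10200746-10210105, covers the whole gene with its centre in intron 2. Its normalized counts were 5311 (ZT0), 6458 (ZT3), 7479 (ZT6), 6077 (ZT9), 6346 (ZT12), 4632 (ZT15), 5010 (ZT18) and 5616 (ZT21). The values at ZT3 to ZT12 all lay above those at ZT15 to ZT0. The interval at ZT6 (7314 to 7648) and that at ZT15 (4503 to 4766) do not overlap, a ratio of 1.61. These are the highest and lowest of 8 single libraries, and the intervals leave out differences between pools and preparations. In pooled tissue, fewer cells of a type and less binding per cell cannot be told apart. The fitted cosine peaked at 6.01 h with a log2 difference between its high and low of 0.50 ± 0.14 (SE from the departures of the 8 libraries), and the cosine was called (edgeR adjusted P = 0.0189). That call was lost without ZT6 (0.112), ZT15 (0.0606) or ZT18 (0.0846). JTK did not call this peak (adjusted P = 0.0826, and 0.915 with cyclic loess), although it did without ZT9 (0.0417) or ZT12 (0.00595).

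The second Fabp4 peak, chr3:10210547-10217868, begins upstream of the start site and is centred 5592 bases from it. An enhancer that drives Fabp4 in fat cells is known in the upstream region of this gene. The normalized counts were 6977 (ZT0), 8626 (ZT3), 8795 (ZT6), 7687 (ZT9), 7489 (ZT12), 6128 (ZT15), 6204 (ZT18) and 6775 (ZT21). This was a rise to ZT6 and a decline to ZT15, with the dark phase after ZT12 holding the 3 lowest values. The interval ran from 8616 to 8978 at ZT6 and from 5978 to 6280 at ZT15, a ratio of 1.44. The cosine peaked at 5.54 h with a log2 difference of 0.49 ± 0.07 and was called (edgeR adjusted P = 0.00419). It was called without each library in turn, with adjusted P values between 0.00408 and 0.0348. JTK called it as well (adjusted P = 0.0260, LAG of 6 h), but not without ZT3, ZT6 or ZT9 (0.161 each), and not with library totals or cyclic loess in place of TMM (0.0826 each). The time course resembled that of other very strong peaks. Of the 77 other peaks with mean counts between those of the 2 Fabp4 peaks, 73 (94.8%) were higher at ZT6 than at ZT15, with a median ratio of 1.31. How far the larger share of reads in strong peaks at ZT6 contributes to the course at Fabp4 was not tested.

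Fabp5, the other fat cell binding protein in the cluster, had far fewer PPARγ reads in its 5 narrower peaks. Of these, 3 were highest at ZT0, 1 at ZT9 and 1 at ZT15. Per kb, the strongest of the 5 had a mean of 636 normalized reads, against 627 for the Fabp4 gene peak and 1002 for the upstream Fabp4 peak. Fabp5 lies on the plus strand at chr3:10012585-10016610, 196 kb from the Fabp4 start site. Its start site is covered by the peak chr3:10012100-10012813. There the normalized counts were 427 (ZT0), 430 (ZT3), 345 (ZT6), 464 (ZT9), 392 (ZT12), 402 (ZT15), 367 (ZT18) and 401 (ZT21). The lowest value fell at ZT6, when both Fabp4 peaks were highest, and the highest came 3 h later. Neither test called this peak (JTK adjusted P = 1, edgeR cosine adjusted P = 0.919), and the fitted log2 difference was 0.07 ± 0.16.

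The strongest peak nearest to Fabp5, chr3:9995182-9996837, lies 16576 bases upstream of the start site and did oscillate. Its normalized counts were 1201 (ZT0), 1155 (ZT3), 1120 (ZT6), 1047 (ZT9), 974 (ZT12), 904 (ZT15), 999 (ZT18) and 1019 (ZT21). The counts declined in order from ZT0 to ZT15 and were higher again thereafter. JTK called it with a LAG of 3 h (adjusted P = 0.0260), and also under each of the other normalizations, whereas the edgeR cosine did not (adjusted P = 0.0655), with a log2 difference of 0.34 ± 0.05. The JTK call was lost without ZT6, ZT12, ZT15 or ZT18 (0.161 each). This peak holds 4 matches of the C/EBP core.

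Downstream of Fabp5, the peak chr3:10020434-10021684 had normalized counts of 536 (ZT0), 441 (ZT3), 352 (ZT6), 432 (ZT9), 338 (ZT12), 423 (ZT15), 490 (ZT18) and 392 (ZT21). Its highest value was at ZT0 and its lowest at ZT12, with no call by either test (JTK adjusted P = 1, edgeR cosine adjusted P = 0.316). The 2 weaker peaks nearest to Fabp5 were chr3:10009394-10009795, with 80.2 to 121 and a JTK call only without ZT9 (0.0417), and chr3:10022228-10023223, with 94.2 to 213. The latter was the most uneven peak of this gene, with values of 213, 197 and 201 at ZT0, ZT15 and ZT18 and between 94.2 and 125 at the other times. It missed both thresholds (JTK adjusted P = 0.0826, edgeR cosine adjusted P = 0.0527), but the cosine passed without ZT0 (0.0227) or ZT21 (0.00660), with library totals (0.0393) and with DESeq2's likelihood ratio test (0.0168), and JTK passed without ZT0 (0.0417).

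Fabp3 had the peak with the lowest P of all 29 by both tests. The gene lies on the plus strand at chr4:130308738-130315463 and has 4 exons. The peak chr4:130298345-130300966 is centred 9082 bases upstream of its start site. Its normalized counts were 2717 (ZT0), 3367 (ZT3), 3790 (ZT6), 3343 (ZT9), 2860 (ZT12), 2484 (ZT15), 2428 (ZT18) and 2682 (ZT21). The values climbed to ZT6 and fell without a break to ZT18. The intervals at ZT6 (3673 to 3910) and ZT18 (2331 to 2528), which cover counting error only, were far apart. JTK called it with a LAG of 6 h (adjusted P = 0.00595). The cosine peaked at 5.95 h with a log2 difference of 0.59 ± 0.07 (edgeR adjusted P = 0.00256). Both calls held under every normalization and without each library in turn, at up to 0.0417 for JTK and 0.0232 for the cosine. Per kb this was also the densest member, with a mean of 1128 normalized reads, rank 638 of all peaks.

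The strongest Fabp3 peak, chr4:130305493-130313160, spans the start site with its centre in intron 1. Normalized counts were 3777 (ZT0), 5191 (ZT3), 5460 (ZT6), 5151 (ZT9), 4376 (ZT12), 4672 (ZT15), 3709 (ZT18) and 4141 (ZT21). The 3 values of ZT3 to ZT9 were the highest. The cosine, peaking at 7.34 h with a log2 difference of 0.47 ± 0.14, was called (edgeR adjusted P = 0.0248). JTK did not call the peak (adjusted P = 0.212, and 0.467 with library totals) under any normalization, and did so only without ZT15 (0.0417). The cosine call was lost without ZT6 (0.0940), ZT9 (0.0611) or ZT18 (0.138), and with library totals in place of TMM (0.0684).

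Of the 4 other peaks near Fabp3, none was called by either test. At chr4:130295039-130296052 the normalized counts were 622 (ZT0), 688 (ZT3), 616 (ZT6), 584 (ZT9), 581 (ZT12), 591 (ZT15), 606 (ZT18) and 609 (ZT21), a narrow range with its top at ZT3. JTK gave 0.0826 and passed without ZT9, ZT15 or ZT21 (0.0417 each) and at a period of 24 h alone (0.0440). With library totals JTK gave 0.467, and the edgeR cosine was far from passing (adjusted P = 0.524). The neighbouring chr4:130296872-130298233, which holds the T11A element shown above, had 255 (ZT0), 360 (ZT3), 359 (ZT6), 330 (ZT9), 293 (ZT12), 329 (ZT15), 304 (ZT18) and 313 (ZT21). It was thus lowest at ZT0, with 293 to 360 at the other times, and was not called (JTK adjusted P = 1). The peak chr4:130314461-130317622 overlaps the end of Fabp3. It is centred past that end, in exon 6 of Zcchc17, a zinc knuckle protein gene on the opposite strand. Its normalized counts were 527 (ZT0), 745 (ZT3), 749 (ZT6), 932 (ZT9), 686 (ZT12), 810 (ZT15), 610 (ZT18) and 697 (ZT21), highest at ZT9 and without a call (edgeR cosine adjusted P = 0.140). The weakest, chr4:130292210-130292749, kept between 167 and 207.

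**Figure D2:**
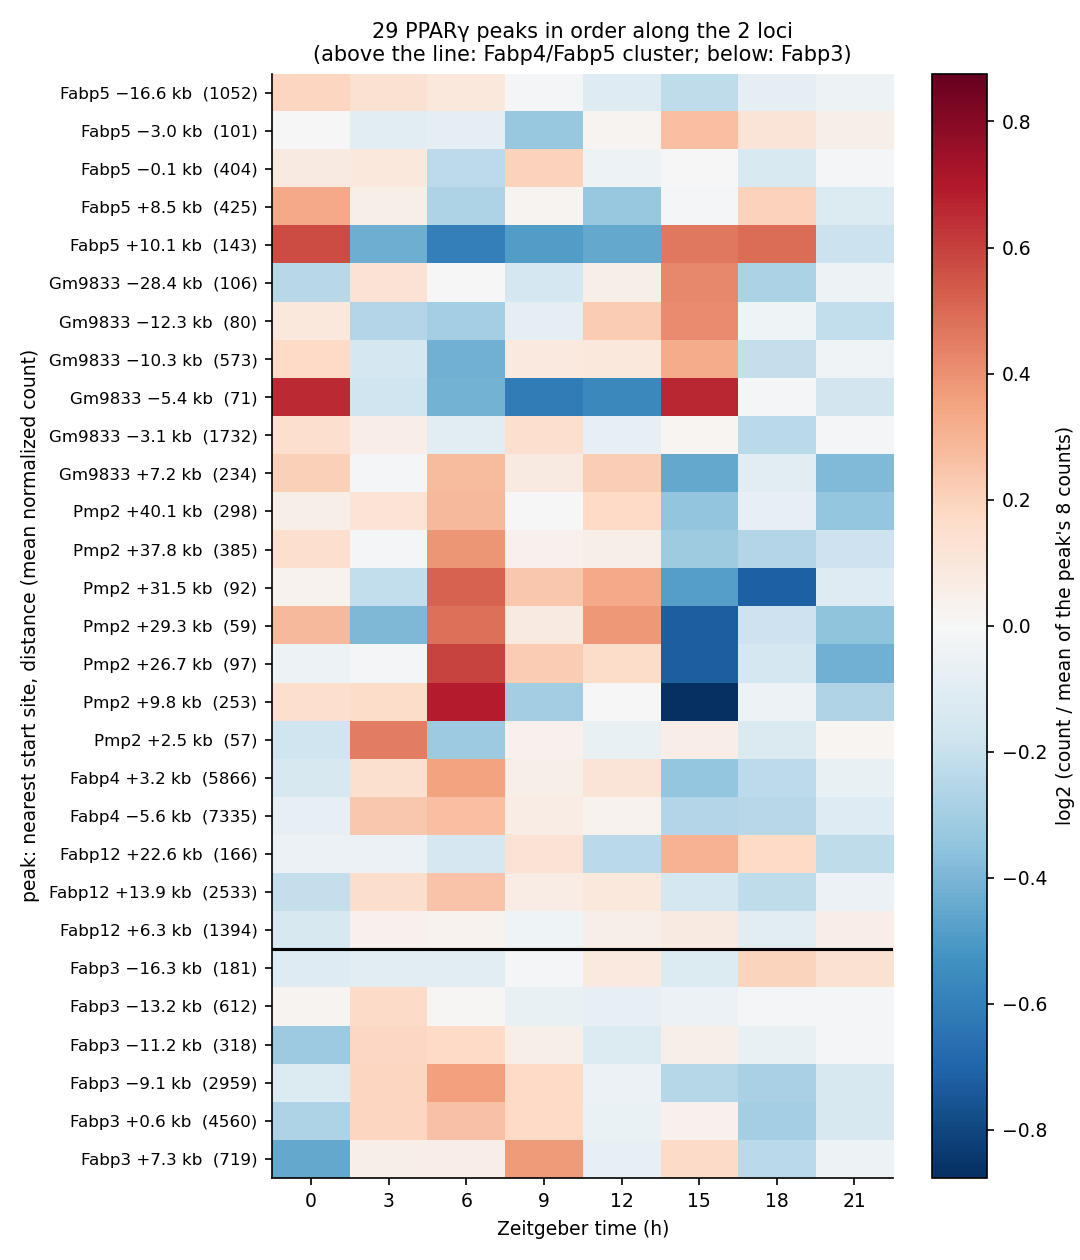
Normalized counts of the 29 peaks relative to each peak's own mean (log2, colour) at the 8 Zeitgeber times in h, with peaks in genome order and labelled by the nearest start site, the distance of the centre from it and the mean normalized count. Rows from Gm9833 +7.2 kb to Pmp2 +9.8 kb are red at ZT6 and blue at ZT15, while the 7 rows above them tend to be the other way round.

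Between Fabp5 and Fabp4, most of the weaker peaks fell into 2 neighbouring stretches that differed in direction between ZT6 and ZT15. These stretches were marked off after the values had been seen, and no test was made of them. From the end of Fabp5 to the start of Gm9833 lay 7 peaks, and all 7 were lower at ZT6 than at ZT15, with ratios from 0.475 to 0.928 and a median of 0.610. From the start of Gm9833 to Pmp2 lay 7 others, and all 7 were higher at ZT6 than at ZT15, with ratios from 1.55 to 2.96 and a median of 2.003. Among other peaks with mean counts in the same ranges, the median ratio was 0.983 for the first stretch and 0.951 for the second, and 48.0% and 44.4% were higher at ZT6. The next peak beyond the second stretch, chr3:10181161-10181667 in intron 3 of Pmp2, also lies between Fabp5 and Fabp4 and went the other way, with a mean of 56.9 and a ratio of 0.772. Relative to each peak's mean, the median of the first stretch was 1.33 at ZT15, 1.13 at ZT0 and 0.814 at ZT6. In the second stretch it was 1.40 at ZT6, 0.715 at ZT15 and 0.790 at ZT21.

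The widest difference of any member was at chr3:10173647-10174547 in the second stretch, with 408 at ZT6 (371 to 449) and 138 at ZT15 (117 to 162). The highest peak of the first stretch, chr3:10083991-10086423 before Gm9833, had a mean of 1732 and differed little between these times (1628 and 1755). None of the peaks in the 2 stretches was called by either test with TMM and all libraries. An unadjusted edgeR cosine P under 0.05 was met by 1 in the first stretch and 5 in the second, against 31.3% of all peaks. Because the stretches were marked off by these same values, the counts are a description and not a test. Other settings gave calls in both stretches. In the second, DESeq2's likelihood ratio test called chr3:10173647-10174547 (0.0379), and without ZT3 the edgeR cosine called chr3:10145070-10147121 (0.0229), chr3:10152092-10152634 (0.0264) and chr3:10156838-10157608 (0.0335), the last of which JTK called without ZT15 (0.0417). In the first, beside chr3:10022228-10023223 described above, JTK called chr3:10075753-10076276 without ZT0 or ZT18 and chr3:10082609-10083083 without ZT15 (0.0417 each). A further called peak of the cluster was chr3:10238468-10242262, beyond Fabp4 and nearest to Fabp12. Its normalized counts were 2193 (ZT0), 2823 (ZT3), 3010 (ZT6), 2645 (ZT9), 2699 (ZT12), 2281 (ZT15), 2172 (ZT18) and 2444 (ZT21), highest at ZT6, as at Fabp4, and lowest at ZT18. The cosine was called (edgeR adjusted P = 0.0423), with a log2 difference of 0.39 ± 0.11 and a peak at 6.75 h. It was lost without ZT3 (0.0532), ZT6 (0.173), ZT9 (0.0522), ZT12 (0.0659), ZT15 (0.109) or ZT18 (0.185) and with library totals (0.108). JTK gave 0.0826.

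**Figure D3:**
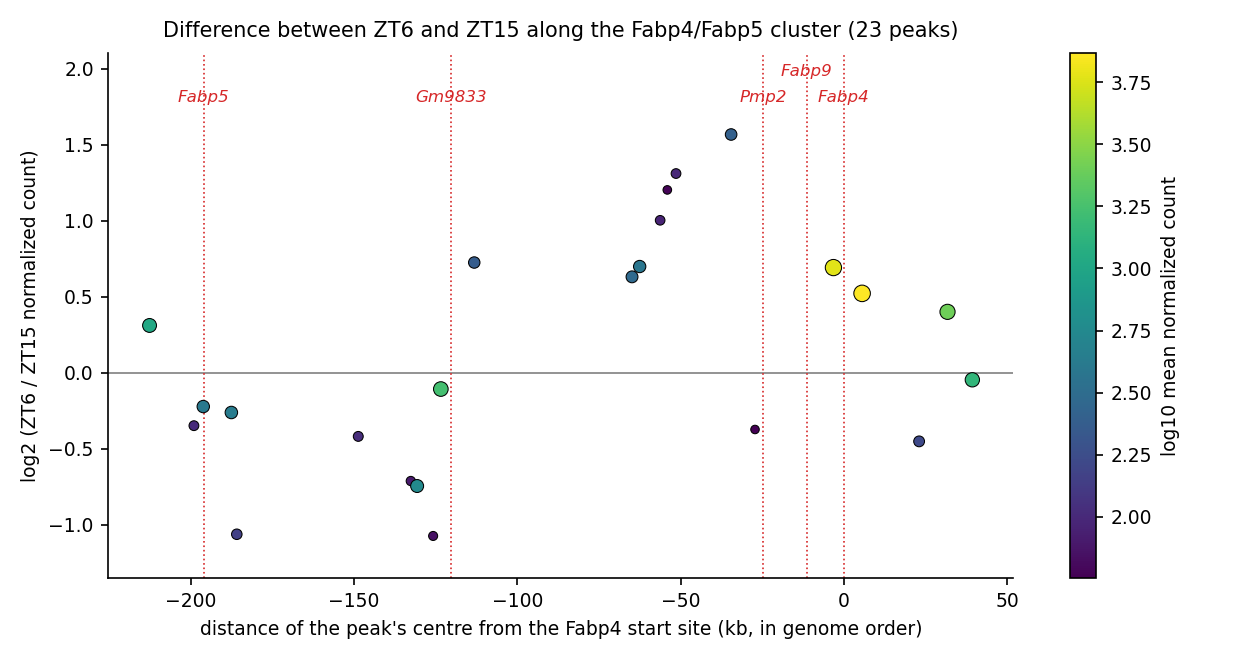
Difference between ZT6 and ZT15 (log2 ratio of normalized counts, vertical axis) for the 23 peaks of the cluster against the distance in kb of the peak's centre from the Fabp4 start site, with dotted lines at start sites. Fabp4 is read from right to left, so its upstream side is to the right, and colour and size of a point show the mean normalized count. The 7 peaks between the end of Fabp5 and Gm9833 lie below 0 and the 7 between Gm9833 and Pmp2 above it, followed by 1 weak peak within Pmp2 below 0.

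Whether 2 genes follow different courses was tested on the ratio of their summed reads within a library, which does not depend on the normalization. Fabp4 to Fabp5 was 4.96 (ZT0), 6.77 (ZT3), 8.11 (ZT6), 6.48 (ZT9), 7.24 (ZT12), 5.26 (ZT15), 5.18 (ZT18) and 6.07 (ZT21). The ratio was thus 1.63 times as high at ZT6 as at ZT0, but its order in time did not pass JTK (adjusted P = 0.467, and 0.701 over the 3 ratios). Fabp4 to Fabp3 stayed between 1.19 at ZT15 and 1.54 at ZT12 (adjusted P = 1). Fabp5 to Fabp3 was 0.307 (ZT0), 0.212 (ZT3), 0.180 (ZT6), 0.202 (ZT9), 0.213 (ZT12), 0.226 (ZT15), 0.276 (ZT18) and 0.236 (ZT21). It was lowest at ZT6 and higher at each later time up to ZT18, without passing the threshold (adjusted P = 0.0826, and 0.248 over the 3 ratios). Without ZT0 or ZT15 it passed (0.00595 and 0.0417), as it did at a period of 24 h alone (0.0440), and with only the strongest peak of each gene it was far from passing (0.915). A difference in time course between any 2 of the genes was therefore not shown with 8 libraries.

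**Figure D4:**
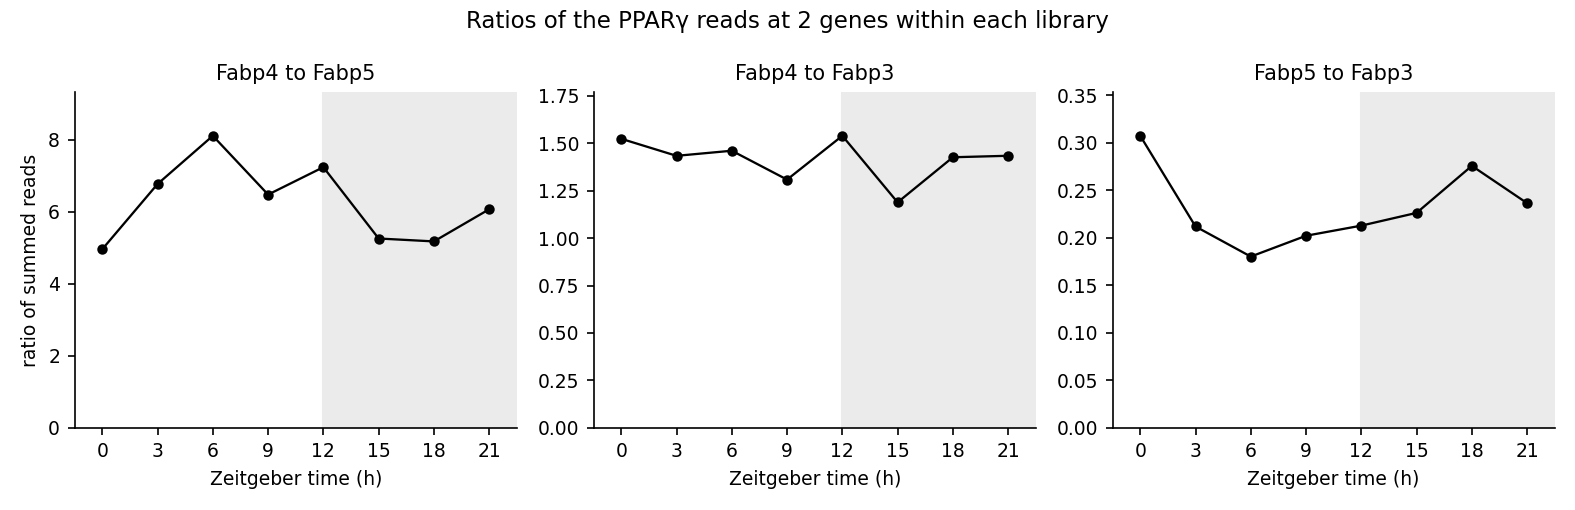
Ratio of the summed reads of 2 genes within each of the 8 libraries (vertical axes from 0) against Zeitgeber time in h, with the dark phase shaded. Points are single libraries, and Fabp4 to Fabp5 is highest at ZT6 (8.11), where Fabp5 to Fabp3 is lowest (0.180).

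Other genes of the lipid binding family had few peaks, apart from Fabp12 with 13. Of 13 such genes, 8 had at least 1 of the 66066 peaks nearest to their start site, with 36 peaks in all, 10 of which are members of the cluster above. Calls were 2 by JTK (5.56%) and 5 by the cosine (13.9%), against 11.6% and 13.4% of all peaks. All of these calls were nearest to Fabp12. Outside the window, its strongest peak, chr3:10288418-10296296, had 8099 normalized reads at ZT6 and 5589 at ZT18 and passed both tests (JTK adjusted P = 0.00595, edgeR cosine adjusted P = 0.00774). Fabp1, the liver form, had a strongest peak with a mean of 1205, and Fabp2 of the intestine and Fabp7 of the brain had 1 peak each, with means of 59.4 and 113. Rbp7, a retinol binding protein of fat, had 5 peaks and a strongest mean of 2960 without a call.

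Peaks were also counted at genes that deliver fatty acids to these proteins or use them afterwards. The list was chosen with earlier results of these data known, so its shares are a description only. The 14 genes, all with peaks, held 122 in all, of which 31 passed JTK (25.4%) and 35 the cosine (28.7%), against 11.6% and 13.4% of all peaks and 20.8% and 27.4% of peaks with mean counts of at least 1000. Of the 35, the fitted cosine peaked between 3 and 9 h in 31. Of all peaks with such a call 44.2% peaked in that span, and 75.3% of those with mean counts of at least 1000. Among enzymes that release stored fatty acids, the strongest peak of Lipe (hormone-sensitive lipase) went from 12132 at ZT15 to 19021 at ZT6 and that of Pnpla2 (adipose triglyceride lipase) from 10961 at ZT18 to 16588 at ZT6 (edgeR cosine adjusted P = 0.00202 and 0.00649). Among genes of uptake, the strongest peak of Slc27a1 (fatty acid transport protein) went from 3377 at ZT15 to 5044 at ZT6 (0.0365). The strongest peaks of Lpl (lipoprotein lipase), with 6225 to 7866, and Cd36 (fatty acid translocase), with 8162 to 10232, did not pass (0.106 and 0.154). Lpl nevertheless had 8 of its 24 peaks called by JTK and 7 by the cosine, and Cd36 had 1 of 26 called by JTK. The single peak of Slc27a4, a further fatty acid transport protein, was highest at ZT0 (484) and lowest at ZT9 (339) and passed JTK (adjusted P = 0.0260) but not the cosine (0.149). Ucp1 had the widest course in this list among peaks above 1000, from 7460 at ZT18 to 15894 at ZT9 (0.00268). Peaks at Fabp4 (ratio of highest to lowest 1.44 and 1.61) and Fabp3 (1.47 and 1.56 for the 2 strong peaks) lay within the range of these genes.

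The 5 peaks outside the windows whose counts most resembled the upstream Fabp4 peak were nearest to Atg101, Rreb1, Plbd1, Pard3 and Dlc1. Likeness was Pearson's r of log2 normalized counts over the 8 time points among 7706 peaks with a mean of at least 1000, and it was between 0.991 and 0.996 for these 5. All 5 were highest at ZT6 and lowest at ZT15, as the upstream Fabp4 peak was. The points share their 8 libraries, and r is given as a description only.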

How the data were processed

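PPARγ ChIP-sequencing was performed on pooled iBAT at 8 time points with 1 library each, and samples were assigned by their labels. The authors mapped reads to mm10 with BWA-MEM (0.7.17), called peaks with MACS2 (2.1.2), and retained those that passed an FDR of 0.05 in 6 or more of the libraries, over which HTSeq (1.99.2) counted the reads. The deposited values are these raw counts per peak. How duplicate reads were treated is not given in the sources used here. Library totals (29572225 to 34264812 reads in peaks) set the counting error, given as Wilson intervals. An input library of ZT12 was not analysed here.

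Counts were normalized with edgeR 4.0.16 (TMM, R 4.3.3). JTK-cycle was run in a new Python 3.11.15 implementation (numpy 2.4.6, pandas 2.3.3) over all 66066 peaks, with details of its tie handling set by comparison with P values in the supplement of the paper. That comparison used library totals, whereas TMM is the main setting here. JTK called 8123 peaks of the whole table with library totals and 7686 with TMM. The 24-h cosine used glmQLFit and glmQLFTest, with a common dispersion of 0.0116 and 5 residual degrees of freedom, since departures from the cosine are the only spread. Both procedures were tested on simulated counts whose rhythms were wider than those fitted to the members. How often rhythms as small as those of the members would be found was not tested. limma 3.58.1 (cyclic loess) and DESeq2 1.42.0 served as alternatives. Peaks were assigned to the nearest of 45756 curated RefSeq transcripts of GRCm38. The windows, gene lists and motifs were chosen with earlier results of these data known. The count at all 8 times is printed for each peak nearest to Fabp3, Fabp4 or Fabp5 with a mean of at least the median of the table and for each called member, 11 in all, and others were named after their values were seen.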

Additional observations from a re-analysis of the deposited data

How the results depend on the processing

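Oscillating peaks by JTK numbered 2 in the Fabp4 and Fabp5 cluster. With library totals or cyclic loess the count was 1, and at a threshold of 0.01 or with Benjamini-Hochberg adjustment over all peaks it was 0. At Fabp3 the count of 1 became 2 with a period of 24 h alone and 0 with that adjustment. In the whole table the 7686 oscillating peaks became 3079 at 0.01 and 0 with that adjustment. Peaks with a 24-h cosine by edgeR in the cluster numbered 3, then 5 with DESeq2's likelihood ratio test and 1 at 0.01. At Fabp3 the count of 2 became 1 with library totals and 1 at 0.01, and over all peaks the 8842 became 2243 at 0.01. Leaving out each library in turn gave 0 to 5 peaks (JTK) and 1 to 5 (cosine) in the cluster, 1 to 3 and 1 to 2 at Fabp3, and 7432 to 10802 and 3067 to 11203 in the whole table. For the ratio of Fabp5 to Fabp3 these P values ran from 0.00595 to 0.161, and with a period of 24 h alone the value was 0.0440. For Fabp4 to Fabp5 they ran from 0.161 to 1 and for Fabp4 to Fabp3 from 0.452 to 1. Stricter thresholds lower a count by construction, whereas leaving out a library raised some counts and lowered others. The cause of the changes other than those from stricter thresholds was not tested. DESeq2's size factors, upper-quartile factors and both filters on low counts changed no call of a member they tested. No paired analysis was possible because each time point has 1 library. With 1 library per time point, effects of time, pool and preparation cannot be told apart. Depth limits the weak peaks most: 37 reads was the smallest count of a member.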
